A study of Mus musculus with 2 samples.

Results

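The collagens and stromal matrix genes described here are 34 mouse genes, of 30163 named genes on the arrays, that encode the fibres, glycoproteins, receptors, cytoskeleton and collagen-processing enzymes by which stromal cells of connective tissue are recognised. They were chosen by name, as every probe whose gene name in the scanner files is one of the 34 symbols, which gave 43 probes on 70 spots. The list holds 11 collagen genes and 23 other stromal genes, and the comparison was made for both groups of genes. Of the 34 genes, 27 had 1 probe and 7 had several.

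Bone marrow mononuclear cells, the mixed blood-forming and immune cells of the marrow, were taken from the femurs of C57/Bl6J mice aged 2 to 4 months, using medium with 2% fetal bovine serum. One group, the untreated negative control, had no drug, and the other was cultured with ninjin'yoeito (NYT), a herbal drug. RNA of both cultures at day 11 was labelled with Cy3 and hybridised to 1 whole-genome mouse array each. With 1 array per group there was no replicate check, no test and no p-value, and every difference below is between 2 arrays. The sources used here give neither the dose of NYT nor the number of animals per culture.

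Collagens are triple-helical proteins of the extracellular matrix. Type I, III and V collagens form the cross-striated fibrils of connective tissue, type IV collagen forms the network of basement membranes, and type VI collagen forms beaded microfilaments around cells. Their chains are hydroxylated and folded in the endoplasmic reticulum, secreted, trimmed and then cross-linked outside the cell. In bone marrow, matrix is made mainly by reticular, perivascular and bone-lining stromal cells, which also support blood-forming cells, while blood cells themselves express few of the fibrillar collagens.

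Nearly all collagen genes on the list were lower in the NYT culture. Col1a1 and Col1a2, the chains of type I collagen, were 40.2-fold and 21.0-fold lower, and all 9 collagen genes measured on both arrays were at least 2-fold lower, against 11.0% of the 16996 genes so measured. The other stromal genes were divided. Of 17 measured on both arrays, 10 were at least 2-fold lower, among them Thy1 at 34.4-fold and Sparc at 13.7-fold, while P4ha2, Fstl1, Vim and Lepr were 2.56-fold to 5.78-fold higher as scaled, of which P4ha2 alone stayed at least 2-fold higher without scaling. Among all measured genes 11.2% were at least 2-fold higher. RNA of a whole culture was measured, so fewer cells expressing these genes, stromal or other, and less RNA per such cell cannot be told apart.

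Values are given as scaled intensity, which is the brightness of a probe divided by the 75th percentile intensity of its array. That percentile was 1476 for control and 728 for NYT, a ratio of 2.03, so a probe with the same scaled intensity on both arrays was dimmer on the NYT array as scanned. Differences are on the log2 scale, NYT minus control, and a gene is counted as lower or higher when the arrays differ by at least 2-fold. The control array had 24506 probes (62.2%) well above background, the NYT array had 22753 (57.7%), and no spot was saturated. The median difference over all genes measured on both arrays was 0.29. A gene well above background on the control array alone is given as "at least N-fold lower", the bright value against the dimmest signal that the NYT array could call or the probe's own value if higher. Such a gene could only come out lower. Of the 19421 genes well above background on 1 or both arrays, 3.77% were of this kind with a bound of at least 2-fold.

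The only error these arrays give is that of spots. Over 247 probes printed 10 times, the median SD of a log2 difference was 0.05, and it was 0.16 for the 41 probes with an NYT intensity under 100, where 8 of the 9 measured collagens lay. Differences between cultures or hybridisations are not in this error. Acta2, Col4a1 and Pdgfra were among the probes printed 10 times. Acta2 had a mean intensity of 7451 ± 85.2 (SD, 7 spots) on the control array and 293 ± 9.31 (SD, 10 spots) on the NYT array. Col4a1 had 307.4 ± 10.5 (SD, 10 spots) against 25.8 ± 4.06 (SD, 10 spots). For both genes the highest NYT spot, at 313.1 for Acta2 and 30.3 for Col4a1, lay far under the lowest control spot, at 7308 and 291.

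**Figure D1:**
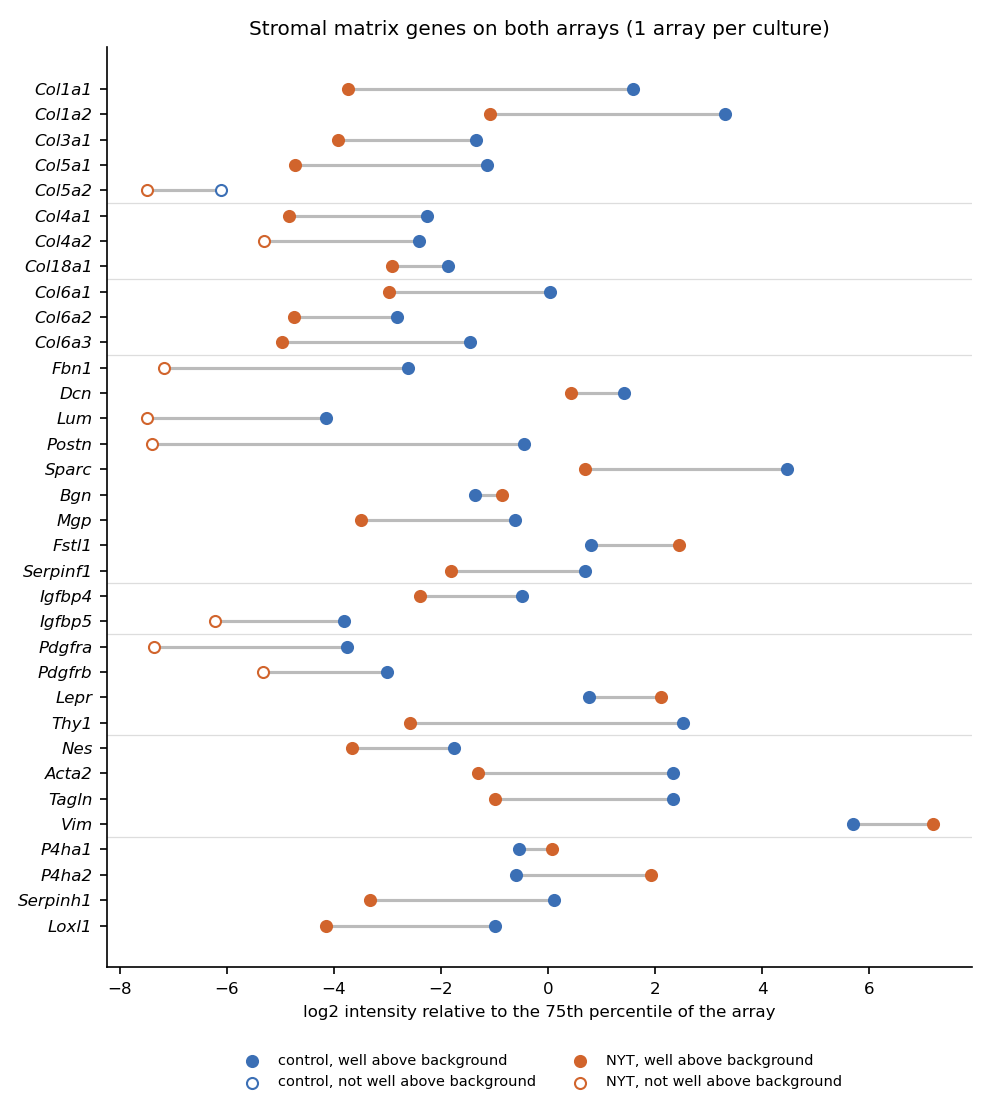
Scaled intensity of the 34 genes on each array, as log2 relative to the 75th percentile of the array (x axis), 1 line per gene in the order of their roles. Blue points are the control array and orange points the NYT array, open points are not well above background, and grey lines join both values of a gene; orange lies left of blue for every collagen, and right of blue for Bgn, Fstl1, Lepr, Vim, P4ha1 and P4ha2.

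Among the fibrillar collagens, 4 of 5 genes were measured on both arrays and all 4 were lower, with a median of -3.98. The pro-alpha1 chain of type I collagen, the main protein of bone and tendon, is encoded by Col1a1, whose scaled intensity was 2.995 in the control culture and 0.0745 in the NYT culture. Its log2 difference of -5.33 placed it low among all measured genes, of which 0.194% had a lower value. The probe lay on chromosome 11 at 94813115 to 94813174 on the plus strand of mm9.

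Col1a2, the partner chain in the same triple helix, had 9.90 in the control culture and 0.472 in the NYT culture, a difference of -4.39, and 0.794% of measured genes lay lower. Both chains of type I collagen were thus well above background on both arrays and were brighter on the control array by more than 20-fold. Its probe was on chromosome 6 at 4490619 to 4490678, plus strand, mm9.

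Type V collagen sits inside type I fibrils and limits their width. Col5a1 lay between the type I chains and Col3a1 in its difference, with 0.452 against 0.0379, or 11.9-fold lower. Col3a1, the single chain of type III collagen of elastic tissues, had 0.395 against 0.0661, or 5.98-fold lower. Col5a2, the other chain of type V collagen, was near background on both arrays and well above it on neither, with intensities of 21.3 and 4.02 before scaling, and no fold is given for it.

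The basement membrane collagens were also lower. Col4a1 and Col4a2 encode the chains of the common type IV network and lie head to head, with overlapping starts in the annotation. Col4a1 had 0.208 in the control culture and 0.0350 in the NYT culture, 5.94-fold lower. Col4a2 was well above background on the control array alone, at 0.189 against 0.0251, and was at least 7.18-fold lower. Col18a1, whose C-terminal fragment is endostatin, had 0.275 against 0.132, a difference of -1.06 that was the smallest of the measured collagens. A second probe for it gave -1.04. Its 2-fold call was lost with quantile normalization (-0.89), in the authors' value table (-0.88) and with another background correction (normexp, -0.53).

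All 3 chains of type VI collagen were lower. Col6a1 had 1.03 against 0.127, an 8.12-fold difference. Col6a3, the longest chain, had 0.366 against 0.0320, an 11.4-fold difference. Col6a2, the neighbour of Col6a1 on chromosome 10, had 0.141 against 0.0375, a 3.78-fold difference that became -0.52 on the log2 scale with normexp. A second Col6a2 probe was well above background on neither array.

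Endothelial cells also make type IV and type XVIII collagen. Of 12 endothelial marker genes, 11 were well above background in the control culture and 6 in the NYT culture, and their summed scaled intensity was 45.4 against 14.1. Vwf made up most of the control sum, at 35.6 against 3.96, and Kdr most of the NYT sum, at 4.37 against 8.625. Of the 6 measured on both, 4 were lower and none higher. The lower genes were Stab2 at -3.57, Pecam1 at -1.88, Egfl7 at -1.11 and Vwf, whose 2 probes gave -3.17 and -0.48. Kdr was at 0.98 by the probe used and 0.04 by another. Cdh5, a defining adhesion molecule of endothelium, had intensities of 58.8 and 7.35. The part of endothelial cells in the collagen values was not tested.

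Chromosomal neighbours on the list were Col3a1 with Col5a2, Col6a2 with Col6a1, and Dcn with Lum. Dcn had 2.68 in the control culture and 1.34 in the NYT culture, 1.99-fold lower, just under the threshold. Lum, which encodes another small leucine-rich proteoglycan of collagen fibrils, had 0.0565 against 0.00556 and was well above background on the control array alone, at least 2.14-fold lower. Dcn passed the 2-fold threshold with quantile normalization (-1.05), loess (-1.25), no scaling (-2.01) and in the authors' value table (-1.04). The bound for Lum shrank to -0.05 with normexp. Bgn, the third small proteoglycan, had 0.390 against 0.549, a log2 difference of 0.49 that turned to -0.53 without scaling and -0.90 with scaling to spike-in RNA.

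Postn and Sparc were also lower. Postn, encoding periostin of periosteum and remodelling tissue, had 0.738 in the control culture and 0.00595 in the NYT culture, where it was not well above background. It was at least 27.99-fold lower. Sparc, or osteonectin, which binds collagen and mineral, had 22.1 against 1.62, a difference of -3.77 by a probe on chromosome 11 at 55208939 to 55208998, minus strand, mm9. A second probe with 0.755 against 0.171 gave -2.15.

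Sparc is also abundant in megakaryocytes and platelets. All 7 megakaryocyte marker genes were at least 2-fold lower, with a median of -4.25, and their summed scaled intensity was 283.8 in the control culture against 31.7 in the NYT culture. Itga2b, which encodes the platelet integrin chain, stood at -4.65 and Pf4, a platelet chemokine, at -2.73. How much of the Sparc value came from megakaryocytes was not tested.

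Mgp, an inhibitor of calcification, had 0.654 against 0.0892, or 7.34-fold lower. Serpinf1, encoding the secreted factor PEDF, had 1.62 against 0.285, a difference of -2.51, and its second probe gave -2.53. Fbn1, encoding the microfibril protein fibrillin-1, had 0.163 in the control culture and 0.00688 in the NYT culture, where it was not well above background, and was at least 6.19-fold lower. With normexp that bound was -0.98 on the log2 scale.

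Fstl1, a secreted follistatin-related glycoprotein of mesenchymal cells, went the other way, with 1.75 in the control culture and 5.46 in the NYT culture. It was 3.13-fold higher as scaled, but 0.63 on the log2 scale without scaling and 0.25 with scaling to spike-in RNA. Of the 9 matrix genes, 6 were measured on both arrays, of which 3 were lower, 1 higher and 2 less than 2-fold apart.

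Both IGF binding proteins were brighter on the control array. Igfbp4, which sequesters insulin-like growth factors, had 0.710 against 0.192, or 3.71-fold lower. Igfbp5, which also binds matrix, had 0.0708 against 0.0134 and was well above background on the control array alone, at least 2.69-fold lower. The bound for Igfbp5 was -0.20 with normexp.

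The receptors and surface markers included the genes most used to recognise marrow stromal cells. Pdgfra and Pdgfrb, the receptors for platelet-derived growth factors, were both well above background on the control array and not on the NYT array. Pdgfra was printed 10 times, and its intensity ranged from 99.2 to 121.1 in the control culture and from 4.02 to 5.23 on the NYT array. It was at least 2.79-fold lower. Pdgfrb had 0.124 against 0.0251 and was at least 4.71-fold lower. With normexp these bounds became -0.20 and -0.71 on the log2 scale.

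Thy1, a surface glycoprotein of fibroblasts, had 5.75 in the control culture and 0.168 in the NYT culture, a difference of -5.10. Its probe was on chromosome 9 at 43856591 to 43856650, plus strand, mm9. In the mouse Thy1 is also a marker of T cells, and 6 of 8 T cell marker genes were at least 2-fold lower, with a summed scaled intensity of 21.6 against 16.7. Cd3d stood at -4.93, Cd3g at -3.64 and Cd3e at -0.72, whereas Cd28 stood at 1.93. Cd28 had 2.78 against 10.6 and made up most of the NYT sum. The part of T cells in the Thy1 value was not tested.

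Of 8 genes used as stromal markers (Pdgfra, Pdgfrb, Lepr, Cxcl12, Col1a1, Col1a2, Dcn and Lum), 8 were well above background in the control culture and 5 in the NYT culture, where Pdgfra, Pdgfrb and Lum were not.

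Lepr, the leptin receptor and the usual marker of perivascular stromal cells of adult marrow, was the receptor gene that stood higher. Its 4 probes lie along the plus strand of chromosome 4, and the value rests on the first of them. The first 30 of the 60 bases of each probe are shown because the probes of this gene disagreed, each named by its identifier on the array:
A_55_P2177910: aattccctcggcgcttcccttgtgaatttt
A_55_P2177911: ttgggacgatgttccaaaccccaagaattg
A_55_P2192662: tgaaggaaatcacaaaggttctgtcggaca
A_66_P130517: gtgacttaactgtgtaatctcatccaagaa

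The probe A_55_P2177910, at 101452666 to 101452725 on mm9, had intensities of 2504 and 3161, which are 1.70 and 4.34 after scaling. Lepr was thus 2.56-fold higher in the NYT culture, with a log2 difference of 0.34 without scaling and -0.04 with scaling to spike-in RNA. The other 3 probes lie 11.9, 33.1 and 35.2 kb downstream of it. Their intensities were 5.65 and 5.14, 5.53 and 6.39, and 5.41 and 4.01 on the control and NYT arrays, and none of these was well above background on any array.

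The higher value of Lepr is thus that of 1 probe of 4. Leprot, an adjacent gene that does not overlap Lepr in the annotation used, had 19.0 against 23.4, a difference of 0.30. Which exon or untranslated region each probe falls in was not analysed here.

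**Figure D2:**
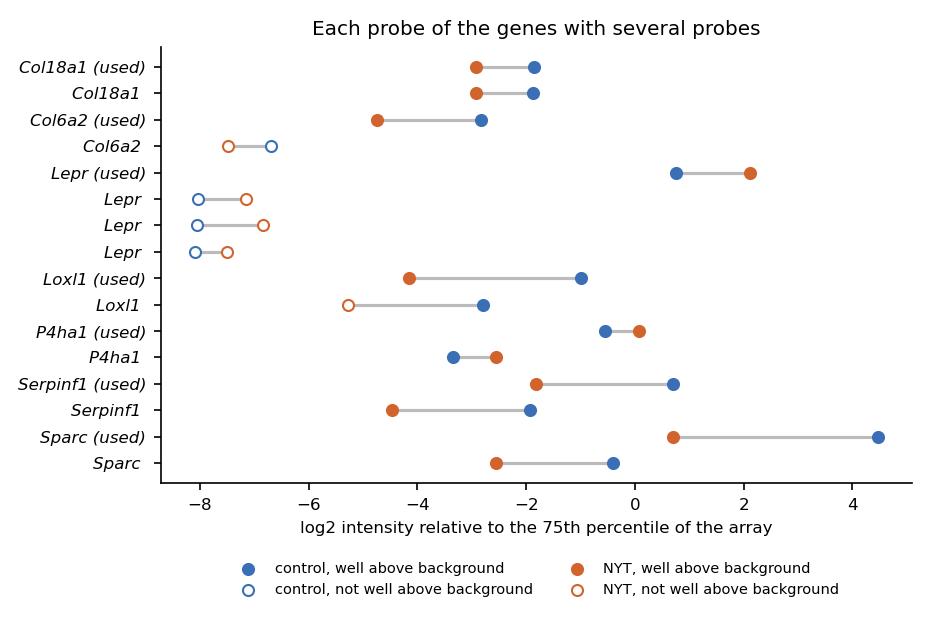
Scaled intensity of each probe of the 7 genes with several probes, as log2 relative to the 75th percentile of the array (x axis). Blue points are control and orange points NYT, open points are not well above background, and "used" marks the probe that stands for the gene; the 2 probes of Col18a1, Serpinf1 and P4ha1 differ by like amounts (-1.06 and -1.04 for Col18a1), whereas 3 of 4 Lepr probes are open on both arrays.

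Of the 4 cytoskeletal genes, Acta2, Tagln and Nes were lower and Vim was higher as scaled. Acta2, encoding smooth muscle actin of myofibroblasts and pericytes, had 5.05 against 0.402, or 12.6-fold lower. Tagln, encoding transgelin of the same contractile cells, had 5.08 against 0.505, or 10.1-fold lower. Nes, encoding the intermediate filament nestin, had 0.298 against 0.0790, or 3.77-fold lower.

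Vim, the intermediate filament gene of mesenchymal cells and also of leukocytes, had 51.9 in the control culture and 146 in the NYT culture. It was 2.81-fold higher as scaled, and under 2-fold with quantile normalization (0.95), loess (0.89), no scaling (0.47), spike-in scaling (0.10) and in the authors' value table (0.94). The pan-leukocyte markers were all well above background on both arrays, 8 of 8, with a summed scaled intensity of 282.1 against 238 and a median of 0.00. Of these, 1 (Coro1a, at -1.145) was at least 2-fold lower and none was higher. For macrophages, 9 of 9 markers were well above background on both arrays, at a sum of 447 against 453.2, with 4 lower, 1 higher and a median of -0.93. The lower markers were C1qa at -5.21, Mrc1 at -1.97, Fcgr1 at -1.70 and Adgre1 at -1.01, and the higher one was Cd68 at 1.18. The part of leukocytes in the Vim value was not tested.

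The genes of collagen processing differed in direction. Serpinh1, which encodes the collagen chaperone HSP47, had 1.09 in the control culture and 0.0995 in the NYT culture, or 10.9-fold lower. Loxl1, a cross-linking oxidase, had 0.501 against 0.0561, or 8.92-fold lower, and its second probe was well above background on the control array alone. P4ha2, a catalytic subunit of the prolyl 4-hydroxylase that stabilises the triple helix, had 0.662 against 3.82, or 5.78-fold higher.

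The P4ha2 probe was on chromosome 11 at 53945032 to 53945091, plus strand, mm9. P4ha2 had the highest value on the list, and 0.571% of all measured genes had a higher one. It was the only gene on the list that stayed at least 2-fold higher under each of the scalings tried, with 1.13 as its lowest value. P4ha1, the alternative catalytic subunit, had 0.687 against 1.06, a difference of 0.62 that turned to -0.40 without scaling and -0.77 with spike-in scaling, and its second probe gave 0.81.

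**Figure D3:**
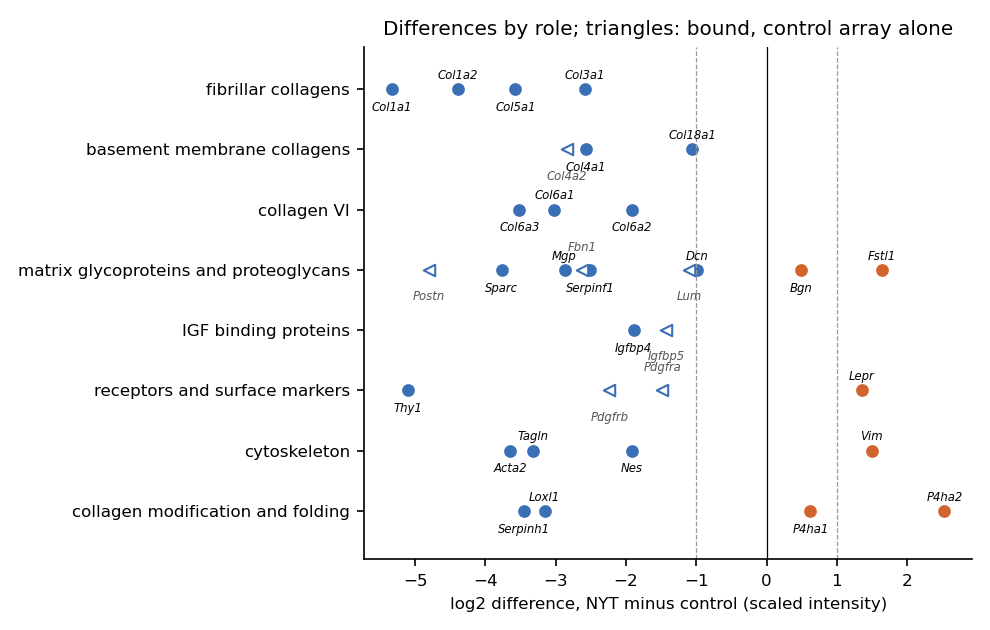
Log2 difference of each gene (x axis, NYT minus control, scaled intensity) in 8 rows by role. Filled blue points lie below 0 and orange points above, open triangles are bounds for genes well above background on the control array alone, and dashed lines mark 2-fold; the 9 measured collagens lie between -5.33 and -1.06, and the rows of matrix, receptor, cytoskeleton and processing genes spread to both sides of 0.

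Collagens and the other stromal genes can be compared by their counts and medians. The collagens had a median of -3.02, with 9 of 9 measured genes lower, 1 gene on the control array alone and 1 on neither. The other stromal genes had a median of -1.91, with 10 lower, 4 higher and 3 less than 2-fold apart of 17 measured, and 6 genes on the control array alone, each with a bound of at least 2-fold. For both groups of genes the medians lay under that of all measured genes, at -3.31 relative to it for collagens and -2.20 for the others.

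Since a filter on dim probes takes members away unevenly, all 34 genes were also read without it. Then 11 of 11 collagens and 16 of 23 other stromal genes were at least 2-fold lower, and 4 of the others were higher. The medians were -2.91 and -2.51, so the gap between the groups of genes was -0.41 in place of -1.11. In that reading 11.3% of all 30163 genes were lower and 15.8% higher, with a median of 0.50. With normexp the gap was -0.30. The difference between collagens and other stromal genes in their medians therefore depended on how dim probes were treated.

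**Figure D4:**
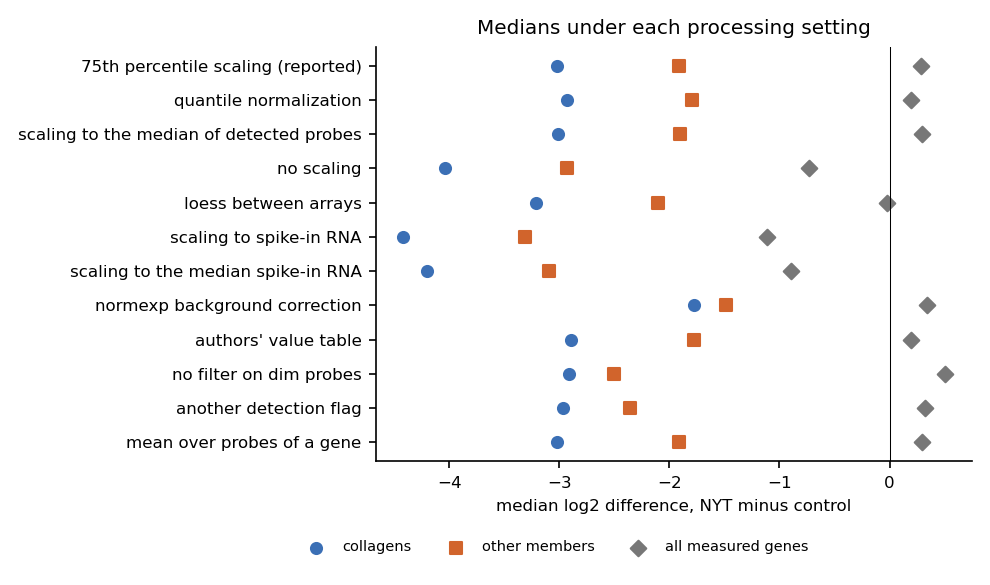
Median log2 difference (x axis, NYT minus control) under each way of processing the arrays, for the collagens (blue circles), the other stromal genes (orange squares) and all measured genes (grey diamonds). Both stromal medians lie left of the all-gene median in each row, from -4.42 to -1.78 for the collagens and from -3.31 to -1.49 for the others, while the all-gene median itself moves from -1.11 to 0.50. Scalings that shift each array by a constant move these medians together.

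Other genes of the same pathways were read from lists made by function. The counts of each list stand beside 11.0% lower and 11.2% higher among all 16996 genes measured on both arrays. Of 30 further collagen genes, 11 were measured on both arrays, with 2 lower, 1 higher and a median of 0.03. Col16a1, of a fibril-associated collagen, was 6.55-fold lower and Col5a3 2.57-fold lower, whereas Col14a1 was at 1.01 on the log2 scale from intensities close to background, and Col20a1 was at -0.94. Col2a1, the cartilage collagen, and Col12a1 were well above background on the control array alone, at least 12.0-fold and 7.07-fold lower. Col25a1 was so on the NYT array alone, at least 2.42-fold higher, and 14 were not well above background on either array.

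Among 28 other genes of collagen biosynthesis, 23 were measured, 5 were lower and 2 higher, with a median of -0.04. Adamts2, which removes the N-propeptide of fibrillar procollagens, was 13.2-fold lower. Fkbp10, a collagen chaperone, was 12.3-fold lower and Pcolce, an enhancer of C-propeptide cleavage, 9.38-fold lower. P3h4, of a collagen modification complex, was at -1.74, and Loxl3, a cross-linking oxidase, at -1.20. The higher genes were Tram2 at 1.29 and Crtap, of the prolyl 3-hydroxylation complex, at 1.16. Plod2, a lysyl hydroxylase well above background on the control array alone, was at least 2.88-fold lower.

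The remaining 16 measured genes of this list were less than 2-fold apart by the probe used. Among them P4hb, the disulphide isomerase that pairs with P4ha subunits, was at 0.67 and Ppib, a prolyl isomerase, at 0.48. The lysyl hydroxylases Plod1 and Plod3 were at -0.16 and -0.02. For some of these genes another probe well above background on both arrays passed 2-fold. Bmp1 was at -0.105 by the probe used and at -1.175 and -2.587 by others, and Loxl2 at -0.755 and -2.50. In the other direction, Lox was at 0.441 and 1.253, and Mia3 at 0.437 and 1.135.

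Of 26 other stromal matrix genes, 17 were measured, 5 lower and 2 higher, with a median of 0.04. Fn1, encoding fibronectin, was 17.6-fold lower and Fbln2, encoding fibulin-2, 14.9-fold lower. The matricellular genes Ccn2, Ccn1 and Thbs1 were at -3.32, -3.26 and -2.35. Eln, encoding elastin, and Thbs2 were well above background on the control array alone, at least 10.67-fold and 2.77-fold lower. Fbn2, the relative of Fbn1, was at 3.13 and Igfbp7 at 2.82.

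Basement membrane partners numbered 14, of which 8 were measured, 4 lower and none higher, with a median of -1.28. The laminin chains Lama5 and Lamb1 were 8.48-fold and 7.66-fold lower, and Nid1, encoding the linker nidogen-1, was 4.63-fold lower. Agrn was at -1.59 by 1 probe and 0.68 by another. Lama4 and Lamb3 were lower by bounds of at least 3.28-fold and 3.18-fold.

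In a list of 19 marrow niche factors, 12 were measured, 5 lower and 1 higher, with a median of -0.46. Cxcl12, the chemokine that retains blood-forming cells in the marrow, was 6.48-fold lower and Angpt1 16.6-fold lower. Vcam1, Cdh2 and Grem1 were at -2.18, -1.72 and -1.59, and Pdpn, encoding podoplanin, at 2.37. Itga11, Prrx1 and Fap, found in fibroblasts, were at least 12.9-fold, 5.57-fold and 3.87-fold lower.

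Of 21 actomyosin and smooth muscle genes, 14 were measured, 7 lower and none higher, with a median of -0.99. Myl9, the regulatory light chain, was 17.9-fold lower, and the calponins Cnn2 and Cnn3 were at -2.26 and -1.70. Vcl was at -1.70 by 1 probe and -0.08 by another. Tpm1, counted at -0.32, was between 0.36 and 1.03 by other probes, the highest of them over 2-fold higher. Actg2 and Cnn1, of smooth muscle, were at least 22.8-fold and 6.29-fold lower.

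Genes of TGF-beta and PDGF signalling, which act on collagen genes and on stromal growth, were 9 lower and 1 higher of 19 measured among 21, with a median of -0.58. Tgfbi and Tgfb3 were at -3.38 and -3.24, and Tgfb2 was at least 5.38-fold lower. Ltbp1 was at -4.47 by 1 probe and 0.18 by another. Pdgfa, a ligand of Pdgfra, was 2.52-fold higher.

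Of 10 genes for collagen receptors and uptake, 6 were measured, 1 lower and 2 higher, with a median of 0.40. Gp6, the platelet collagen receptor, was 20.2-fold lower. Ddr2 and Mrc2, the collagen receptor kinase and the uptake receptor of fibroblasts, were at least 5.72-fold and 3.30-fold lower. Mfge8 and Lair1 were at 1.64 and 1.09, and Itgb1 at 0.97 by 1 probe and 2.32 by another.

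**Figure D5:**
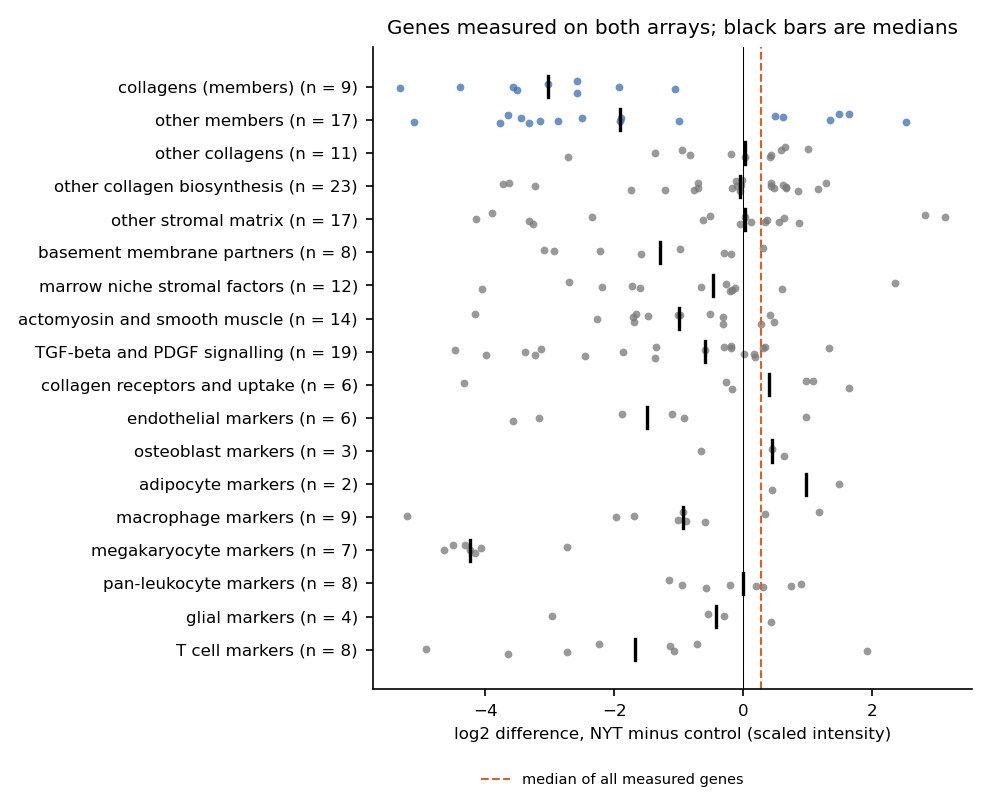
Log2 difference (x axis, NYT minus control) of each gene measured on both arrays, 1 row per list. Blue points are the collagens and other stromal genes, grey points the other pathway and marker lists, black bars the medians and the dashed line the median of all measured genes, 0.29; the collagens (-3.02) and the megakaryocyte markers (-4.25) have the lowest medians shown.

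Markers of other mesenchymal and glial cells were few. Of 8 osteoblast markers, 4 were well above background on each array, with sums of 0.294 and 0.263, but not the same 4. Runx2, Alpl and Mepe were so on both arrays, and Sp7, Dmp1 and Phex on neither. Ibsp was so on the control array alone, at least 3.57-fold lower, and Bglap on the NYT array alone, at least 1.93-fold higher. Of 7 adipocyte markers, Pparg and Fabp4 were well above background on both arrays, while Adipoq, Plin1, Cfd, Lep and Cidec were on neither. The sum of the adipocyte markers, 28.7 against 76.9, was mostly that of Fabp4, at 25.8 and 72.8. Of 6 glial markers, 4 were well above background on both arrays, at a sum of 12.4 against 9.996, with Mbp at 11.9 and 9.79. Their part in the values of the stromal genes was not tested.

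Sequences before the annotated starts of 4 genes are shown because they stand for both directions on the list, Col1a2 and Serpinh1 among the lower genes and P4ha2 and Vim among the higher. Each is the 250 bases before the start, from RefSeq on GRCm38.p6, 5′ to 3′ on the gene's strand. Capitals mark 3 promoter motifs. The CCAAT box is searched by the letters of its name. For the TATA box of many regulated genes the letters searched are TATAAA. For the GC box, to which factors of the Sp family bind, they are GGGCGG. Each is searched on both strands, so a run in capitals can be the reverse complement, and none of these motifs contains another. The windows are chr6:4505368-4505617 (plus strand) for Col1a2, chr7:99353240-99353489 (minus) for Serpinh1, chr11:54100674-54100923 (plus) for P4ha2 and chr2:13574061-13574310 (plus) for Vim.
Col1a2: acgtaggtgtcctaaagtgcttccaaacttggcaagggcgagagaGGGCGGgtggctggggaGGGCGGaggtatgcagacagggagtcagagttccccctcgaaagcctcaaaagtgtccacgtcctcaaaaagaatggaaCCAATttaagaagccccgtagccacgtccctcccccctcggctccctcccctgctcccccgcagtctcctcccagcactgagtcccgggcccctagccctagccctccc
Serpinh1: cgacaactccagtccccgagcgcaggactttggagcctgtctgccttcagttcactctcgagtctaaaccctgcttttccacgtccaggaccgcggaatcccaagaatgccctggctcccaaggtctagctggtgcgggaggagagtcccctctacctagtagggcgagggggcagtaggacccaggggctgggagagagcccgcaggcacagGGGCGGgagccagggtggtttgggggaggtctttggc
P4ha2: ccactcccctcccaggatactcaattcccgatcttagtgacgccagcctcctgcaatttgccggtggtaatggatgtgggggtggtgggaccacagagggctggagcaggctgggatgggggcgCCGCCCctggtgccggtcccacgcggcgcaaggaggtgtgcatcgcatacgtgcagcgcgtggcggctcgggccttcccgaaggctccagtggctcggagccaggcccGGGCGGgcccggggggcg
Vim: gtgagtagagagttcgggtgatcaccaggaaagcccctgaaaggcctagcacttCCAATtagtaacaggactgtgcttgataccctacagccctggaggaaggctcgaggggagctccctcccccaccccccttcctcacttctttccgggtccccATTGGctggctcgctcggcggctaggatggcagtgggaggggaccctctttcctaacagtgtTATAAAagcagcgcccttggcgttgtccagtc

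Col1a2 had a CCAAT box starting 109 bases before the start and GC boxes at 205 and 188. Serpinh1 had a GC box at 37. P4ha2 had GC boxes at 126 and 18, and Vim had CCAAT boxes at 196 and 94 and a TATA box at 32.

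Windows were found for 25 of the 34 genes, 29 in all since some have several starts. Thy1, Lum, Dcn, Tagln, Loxl1, Pdgfrb, Col5a2, Mgp and Col1a1 had none. A CCAAT box was in 7 of 29 windows (24.1%), a TATA box in 4 (13.8%) and a GC box in 14 (48.3%), against 33.8%, 12.4% and 32.7% of all 32851 windows of this length. A match is a stretch of letters and says nothing here about binding.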

How the data were processed

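Both arrays were Agilent whole-genome mouse arrays scanned in 1 colour. The authors deposited the intensity of every spot. The headers of these scanner files give Feature Extraction 10.7.1.1, but the submitters' processing notes give 9.5.1.1. Spatial and multiplicative detrending were on, background correction was off, and surrogates stood in for signals near background, all per the file headers. The labels and the series' design name different RNA extraction kits. A value table deposited by the authors, also of intensity, was quantile normalized, by a method not given in the sources used here.

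Of 43020 spots for genes on each array, outliers were removed (258 on control, 165 on NYT). The log2 intensity of a probe was the mean over its spots, and the 75th percentile of each array was subtracted. For a gene with several probes, the brightest of those well above background in both samples was used, a probe being so when more than 50% of its spots were. Probes were named through RefSeq genes of GRCm38.p6 by accession (26761 probes), symbol (3814) or synonym (639), and 8215 kept the file's name. Probe coordinates are those of the files, on mm9.

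The 34 genes, the pathway lists and the markers were chosen with earlier results of these data known. All 34 genes were to be named, with up to 4 measured genes of the largest difference and up to 3 bounds per pathway list, and other genes were named after their values were seen, as were T cell markers and Leprot chosen. A gene that this rule took is not reported here. Alternatives were quantile normalization, median scaling, no scaling, loess, scaling to 8 spike-in probes by their mean, normexp (limma 3.58.1, R 4.3.3, offset 50), the value table, no filter, another detection flag, the mean over probes and a 3-fold threshold. Scaling to the median of the spike-in probes was added after seeing the data. Counting was tested on simulated data. Computation used Python 3.11.15, pandas 2.3.3, numpy 2.4.6 and statsmodels 0.14.6. Precision is limited by the number of arrays, 1 for each culture.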

Additional observations from a re-analysis of the deposited data

How the results depend on the processing

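No paired analysis was possible because there was 1 array per culture. The collagen median of -3.02 was -4.42 with scaling to spike-in RNA and -1.78 with normexp, whose offset of 50 pulls dim intensities together. The collagen median minus that of the other stromal genes, -1.11, was -0.30 with normexp and -0.41 without the filter. Of the 4 genes at least 2-fold higher, 1 (P4ha2) stayed so without scaling, 1 with scaling to spike-in RNA, 1 with scaling to its median, and 2 (P4ha2 and Fstl1) passed 3-fold. Lepr reversed to -0.04 with scaling to spike-in RNA.

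Over all genes, 1868 lower and 1908 higher became 6190 and 211 without scaling, 9712 and 125 with scaling to spike-in RNA, 7485 and 166 with scaling to its median, 3414 and 4755 without the filter, and 1167 and 507 at 3-fold. Loess gave 944 higher and the other detection flag 3577 higher. Spike-in probes differed by 0.16 in the median and 2.25 at most before scaling, and scaling by them and by the 75th percentile differed by 1.40. The medians of collagens and other stromal genes, relative to all genes, kept their sign under every setting run. Median scaling, no scaling and both spike-in scalings shift each array by a constant. They could not change these relative medians, which stayed at -3.31 and -2.20. Single genes kept their direction and side of the threshold in 330 comparisons, lost a 2-fold call in 20 and gained one in 6 (all Dcn). Some of the 330 could not differ, such as the mean over probes, or no filter, for a gene with 1 probe measured on both arrays. The sign changed for Lepr in 1 comparison, and for Bgn and P4ha1, under 2-fold throughout, in 3 each. Except where stated, the cause was not tested. With 1 array per group, intensities under 100 on the NYT array limit the folds of most collagens.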
